A study of Mus musculus with 24 samples.

Results

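Hypothalamic neuropeptide genes encode the precursors of peptides that small groups of neurons at the base of the forebrain release as hormones or transmitters. This set holds 9 of them (Avp, Oxt, Hcrt, Pmch, Trh, Gal, Agrp, Pomc and Cartpt). They were taken by gene symbol from count tables that list 54532 genes, and all 9 were found at both ages. The list was drawn up with earlier results of these data known, so counts over the 9 are not those of a list blind to the data. Each precursor is cleaved by prohormone convertases inside dense-core granules and the peptides act on G protein-coupled receptors. Most of these genes are transcribed in few neurons of known position. Vasopressin (Avp) and oxytocin (Oxt) come from the large neurosecretory cells of the paraventricular and supraoptic nuclei, orexin (Hcrt) and melanin-concentrating hormone (Pmch) from the lateral hypothalamus, and agouti-related peptide (Agrp) and proopiomelanocortin (Pomc) from opposed feeding neurons of the arcuate nucleus. Thyrotropin-releasing hormone (Trh), galanin (Gal) and the CART prepropeptide (Cartpt) are also made by neurons outside the hypothalamus.

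The libraries were made from polyA-enriched RNA of mice whose Polr3a mutation was brought about by tamoxifen at P28, and of wild types given the same tamoxifen. The product of Polr3a is the catalytic core subunit of RNA polymerase III, which makes tRNAs and other short RNAs. The 6 groups of 4 libraries were mutant and wild type cerebrum at P75 (47 days after tamoxifen, males only), mutant and wild type cerebrum at P42 (14 days after tamoxifen, 2 males and 2 females each), and mutant cerebellum (2 males, 2 females) and wild type cerebellum (3 males, 1 female) at P42. All animals were C57BL/6J fed ad libitum; the allele, the recombinase, its driver and the cells in which it acts are not named in the labels, which also leave out whether a library is 1 animal and how cerebrum was dissected, so p-values measure the spread between libraries.

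Library totals lay between 13832721 and 23175864 counts, so that 1 count was 0.0431 to 0.0723 CPM (counts per 1000000 counts of the library). Polr3a itself did not separate the genotypes, at 32.7 ± 1.68 CPM in mutants against 32.5 ± 3.04 CPM in wild types in P75 cerebrum (SD, n = 4 each) and no call between genotypes at either age or in cerebellum; its level would not show a change of sequence. Of the tissue markers, 8 of 9 of cortex and hippocampus were called higher in wild type cerebrum than in wild type cerebellum, and 8 of 8 of cerebellum lower, where 2943 of all 17964 genes were called higher and 2529 lower. The cerebrum libraries at P42 stood apart from each other in region markers. Mutant replicates 3 and 4 had 115 and 184 CPM of Slc17a7, a glutamate transporter gene of cortical excitatory neurons, and the other mutants 900 and 811 CPM, against 665 to 1218 CPM in the wild types. The dopamine transporter gene Slc6a3, a midbrain marker, had 0.225 CPM in mutant replicate 1 and 37.3 to 52.3 CPM in the other mutants, against 0.276 and 0.216 CPM in wild type replicates 1 and 2 and 34.0 and 23.3 CPM in the other wild types. At P75 Slc6a3 kept to 17.2 to 29.8 CPM in mutants, against 16.4 to 23.1 CPM in wild types. In such bulk tissue, fewer cells of a type and less RNA per cell cannot be told apart.

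In the deposited annotation (mm10) Avp (ENSMUSG00000037727) lies on chromosome 2 from 130580620 to 130582554 on the minus strand and Oxt (ENSMUSG00000027301) from 130576173 to 130577054 on the plus strand, tail to tail with 3565 bases between them. Hcrt (ENSMUSG00000045471) lies on chromosome 11 from 100761069 to 100762931 (minus), Pmch (ENSMUSG00000035383) on chromosome 10 from 88091072 to 88092375 (plus), Trh (ENSMUSG00000005892) on chromosome 6 from 92242061 to 92244650 (minus) and Gal (ENSMUSG00000024907) on chromosome 19 from 3409919 to 3414472 (minus). Agrp (ENSMUSG00000005705) spans chromosome 8 from 105566698 to 105637393 (minus), Pomc (ENSMUSG00000020660) chromosome 12 from 3954951 to 3960642 (plus) and Cartpt (ENSMUSG00000021647) chromosome 13 from 99898489 to 99901091 (minus). In the GENCODE M21 annotation the exons of Pmch share 199 and 236 bases with Parpbp on the opposite strand. The first exon of the long Agrp transcript shares 114 bases with Ctcf on the opposite strand and with Gm5914. No label says whether counting used the strand, so reads within the shared bases cannot be told from those of Parpbp and Ctcf. Gm5914 lies on the strand of Agrp, so strand would not separate these.

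Promoters were matched in RefSeq (GRCm38.p6) for 8 of the 9 genes, all but Agrp, from 250 bases before to 50 bases after the start. The 4 printed here are those of the 2 adjacent genes and of the 2 with the widest spread between P42 libraries: the neighbours Avp (chr2:130582539-130582838, minus) and Oxt (chr2:130575919-130576218, plus), and the lateral hypothalamic genes Hcrt (chr11:100762882-100763181, minus) and Pmch (chr10:88090822-88091121, plus). Capitals mark TATAA or ATAAA on the gene's strand that begins within the 40 bases before the start, and TGACC on either strand (as GGTCA on the other), a core of response elements of nuclear receptors. In Hcrt and Pmch a TATAA and an ATAAA overlap and are marked as 1 run.
Avp: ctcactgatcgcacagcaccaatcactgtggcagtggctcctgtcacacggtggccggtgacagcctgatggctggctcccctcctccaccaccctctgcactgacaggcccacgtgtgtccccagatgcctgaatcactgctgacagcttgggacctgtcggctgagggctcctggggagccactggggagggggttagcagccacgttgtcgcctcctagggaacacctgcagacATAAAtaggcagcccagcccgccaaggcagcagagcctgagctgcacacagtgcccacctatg
Oxt: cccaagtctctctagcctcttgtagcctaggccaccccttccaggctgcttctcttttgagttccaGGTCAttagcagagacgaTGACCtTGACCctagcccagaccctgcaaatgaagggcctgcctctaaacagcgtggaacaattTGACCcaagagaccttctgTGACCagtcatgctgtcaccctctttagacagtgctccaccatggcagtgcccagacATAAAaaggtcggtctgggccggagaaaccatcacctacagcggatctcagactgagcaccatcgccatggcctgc
Hcrt: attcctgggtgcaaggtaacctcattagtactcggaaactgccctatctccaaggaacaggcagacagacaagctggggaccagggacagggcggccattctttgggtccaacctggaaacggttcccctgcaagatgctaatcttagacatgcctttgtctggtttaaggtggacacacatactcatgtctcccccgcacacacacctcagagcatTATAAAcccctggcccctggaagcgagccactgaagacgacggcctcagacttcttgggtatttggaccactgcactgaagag
Pmch: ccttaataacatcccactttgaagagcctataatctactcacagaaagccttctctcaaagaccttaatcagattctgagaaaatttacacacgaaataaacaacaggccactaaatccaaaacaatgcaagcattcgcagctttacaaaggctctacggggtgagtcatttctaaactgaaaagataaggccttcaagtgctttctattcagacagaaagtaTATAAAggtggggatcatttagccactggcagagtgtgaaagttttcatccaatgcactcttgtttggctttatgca
All 4 hold a TATA-like match, which 7.70% of 32851 RefSeq promoters of this length do, with its first base 13 bases before the start in Avp, 26 in Oxt, 33 in Hcrt and 27 in Pmch. Among the other matched members Trh and Pomc hold such a match, that of Cartpt begins at the last base before the start and runs past it, and Gal holds none that begins in that window. TGACC occurs 5 times in Oxt and in none of the other 3 printed promoters. At least 1 TGACC is present in 40.5% of all promoters and at least 4 in 0.399%. These matches describe the letters only.

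Vasopressin and oxytocin regulate water balance, birth, lactation and social behaviour. At P75 Avp had 32.3, 30.9, 32.0 and 33.2 CPM in mutant cerebrum, against 19.3, 8.53, 23.6 and 19.9 CPM in wild types. Every mutant lay above every wild type and the mutants hardly differed from each other, with wild type replicate 2 lowest. Avp rose, with a log2 fold change of 0.74 ± 0.20 (SE; edgeR quasi-likelihood test, adjusted p = 0.0250; DESeq2 adjusted p = 0.00375). Oxt had 24.1, 17.5, 18.0 and 13.7 CPM in mutants, against 23.2, 5.83, 24.5 and 23.2 CPM in wild types at P75. These groups overlapped, and the log2 fold change of -0.17 ± 0.30 did not pass (edgeR adjusted p = 0.760). Without mutant replicate 1 the Avp call was lost (0.76, edgeR adjusted p = 0.0574), and it held without any other library. Wild type replicate 2 was the low library for both neighbours. Without it Avp had 0.52 (edgeR adjusted p = 0.00471) and Oxt was called lower (-0.47, edgeR adjusted p = 0.0465). That was the only call of Oxt in 8 fits that left out 1 library. Over these 8 its log2 fold change was -0.47 to -0.034 and its edgeR adjusted p 0.0465 to 0.962.

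At P42 Avp had 2.42, 21.2, 30.2 and 36.5 CPM in mutants, against 0.774, 0.820, 1.51 and 3.72 CPM in wild types. Mutants 2 to 4 exceeded all wild types and mutant replicate 1 lay within their range. Oxt had 8.61, 13.1, 43.5 and 31.3 CPM in mutants, against 0, 0, 0.416 and 5.23 CPM in wild types, without overlap. For both genes the order held within each sex, since the males were replicates 1 and 3 and the females replicates 2 and 4 in both groups. The log2 fold changes were 3.65 ± 0.72 for Avp (edgeR adjusted p = 0.230) and 4.33 ± 1.17 for Oxt (edgeR adjusted p = 0.340), both short of the threshold. DESeq2 called Avp (adjusted p = 0.00347) and not Oxt (0.178). In the authors' deposited table Avp had a log2 fold change of 3.62 with an adjusted p of 0.00593, and Oxt 3.98 with 0.275. Without mutant replicate 1, the lowest mutant for Avp, the edgeR test called Avp (3.99, adjusted p = 0.0432). That was the only call of Avp in 8 fits that left out 1 library. Over these 8 its log2 fold change was 2.77 to 4.22 and its edgeR adjusted p 0.0432 to 0.710. Without mutant replicates 3 and 4 together the log2 fold change was 2.31 for Avp and 3.62 for Oxt.

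**Figure D1:**
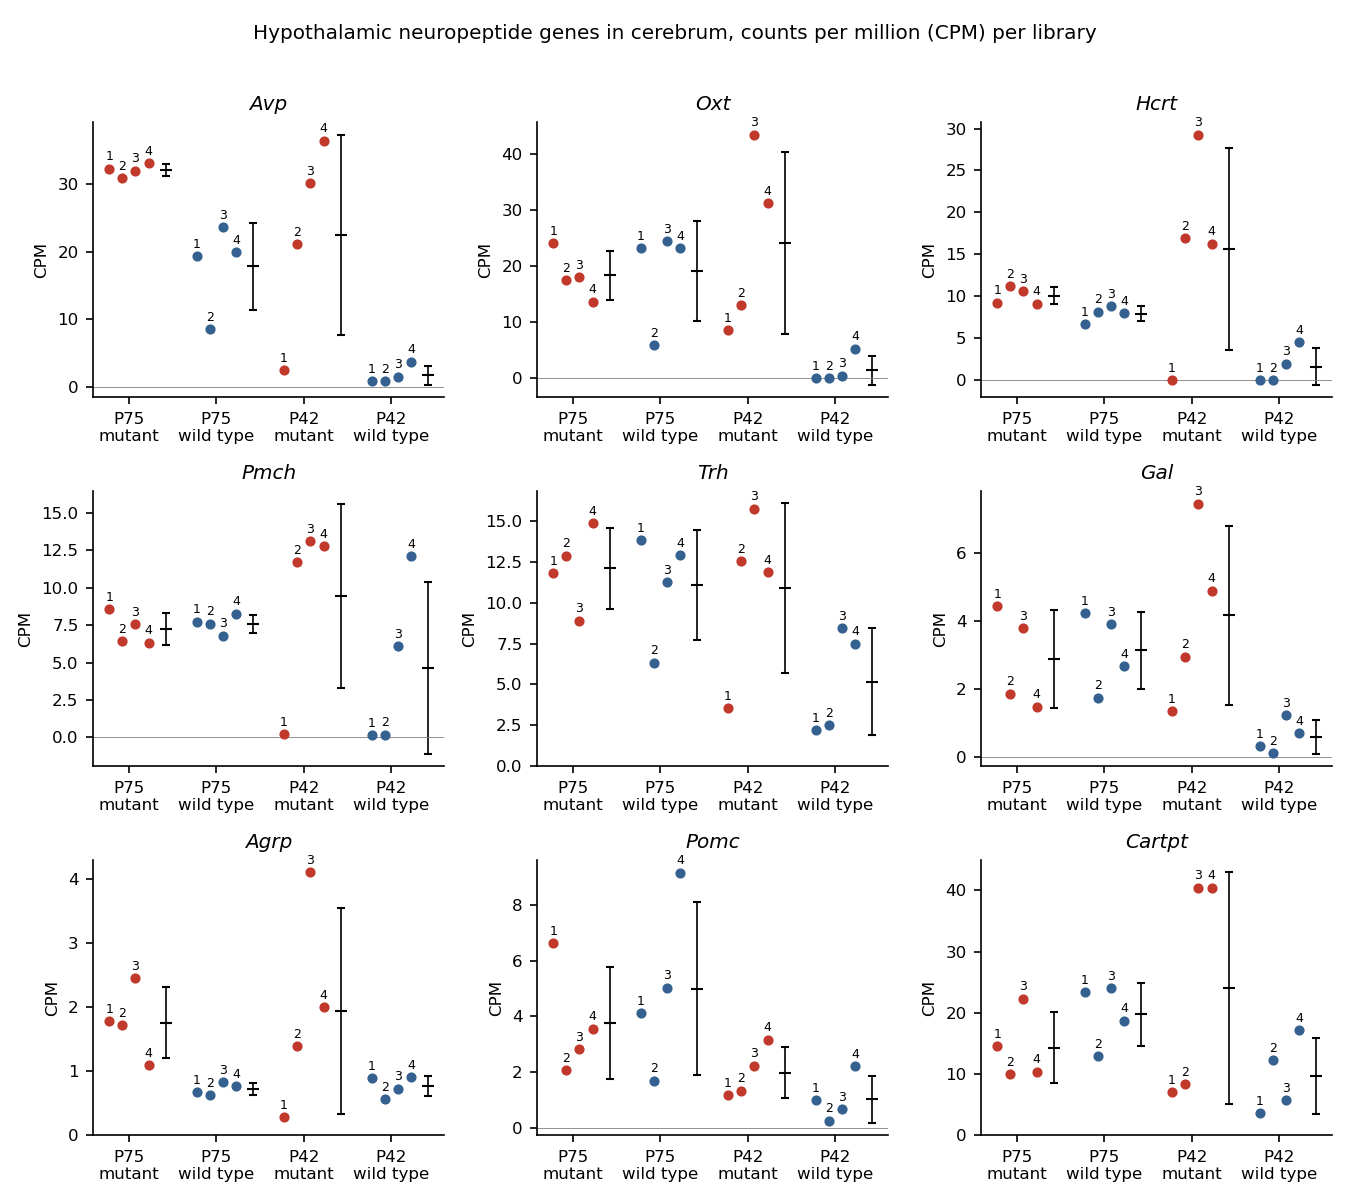
CPM of the 9 neuropeptide genes in each cerebrum library, by age and genotype; points are libraries numbered by replicate (red mutant, blue wild type), and bars give the mean and SD of 4 libraries. At P42 Hcrt is at 0 in mutant replicate 1 and in wild type replicates 1 and 2, while at P75 it lies between 6.69 and 11.2 CPM in all 8 libraries.

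Orexin neurons sustain wakefulness, and neurons with melanin-concentrating hormone lie among them and act in sleep and feeding. Hcrt at P75 had 9.24, 11.2, 10.6 and 9.13 CPM in mutants, against 6.69, 8.15, 8.84 and 7.95 CPM in wild types. All mutants were above all wild types, by a margin that did not pass (log2 fold change 0.24 ± 0.14, edgeR adjusted p = 0.294). Pmch at P75 had 8.59, 6.45, 7.58 and 6.32 CPM in mutants, against 7.73, 7.59, 6.79 and 8.27 CPM in wild types, with overlap (-0.18 ± 0.15, edgeR adjusted p = 0.484). At P42 Hcrt had 0, 16.9, 29.3 and 16.3 CPM in mutants, against 0, 0, 1.98 and 4.53 CPM in wild types. Pmch had 0.225, 11.7, 13.1 and 12.8 CPM in mutants, against 0.166, 0.173, 6.08 and 12.1 CPM in wild types. The same 3 libraries, mutant replicate 1 and wild type replicates 1 and 2, were at or near 0 for both genes, and they are the libraries with almost no Slc6a3. The groups overlapped, and the log2 fold changes were 3.25 ± 1.38 for Hcrt (edgeR adjusted p = 0.389) and 0.95 ± 1.17 for Pmch (edgeR adjusted p = 0.720). Pmch turned to -0.16 without mutant replicate 3, and Hcrt had 1.27 and Pmch -0.45 without mutant replicates 3 and 4 together.

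Thyrotropin-releasing hormone drives the thyroid axis through the pituitary, and galanin is an inhibitory peptide of sleep-active and many other neurons. At P75 Trh had 11.8, 12.9, 8.91 and 14.9 CPM in mutants, against 13.9, 6.34, 11.3 and 12.9 CPM in wild types, which overlapped (log2 fold change 0.03 ± 0.21, edgeR adjusted p = 0.954). Gal at P75 had 4.44, 1.87, 3.79 and 1.49 CPM in mutants, against 4.23, 1.76, 3.91 and 2.67 CPM in wild types, overlapping as well (-0.23 ± 0.35, edgeR adjusted p = 0.716). At P42 Trh had 3.55, 12.5, 15.8 and 11.9 CPM in mutants, against 2.21, 2.50, 8.47 and 7.50 CPM in wild types (0.99 ± 0.53, edgeR adjusted p = 0.444). Mutant replicate 1 was the lowest mutant and lay between the wild types, of which replicates 3 and 4 were the high ones. Gal at P42 had 1.35, 2.96, 7.46 and 4.90 CPM in mutants, against 0.332, 0.129, 1.25 and 0.704 CPM in wild types. These did not overlap, although mutant replicate 1 and wild type replicate 3 were close. Its log2 fold change of 2.74 ± 0.67 missed the threshold with edgeR (adjusted p = 0.314) and passed with DESeq2 (adjusted p = 0.00388), as it did in the authors' deposited table, with 2.70 and an adjusted p of 0.00519.

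Agouti-related peptide raises food intake by blocking melanocortin receptors, which the products of Pomc activate, and the CART peptide is made by Pomc neurons and by other neurons. At P75 Agrp had 1.78, 1.72, 2.46 and 1.09 CPM in mutants, against 0.675, 0.627, 0.830 and 0.764 CPM in wild types, without overlap. Agrp rose, by a log2 fold change of 1.17 ± 0.33 (edgeR adjusted p = 0.0298; DESeq2 adjusted p = 0.0215). These levels rest on 130 counts over the 4 mutant and 50 over the 4 wild type libraries. When each library was left out in turn the call was lost in 7 of 8 fits, all but that without mutant replicate 4, with log2 fold changes of 0.96 to 1.34 and edgeR adjusted p-values of 0.0162 to 0.0950 over the 8 fits. Per kilobase of exon, Agrp had 1.74 ± 0.551 CPM in P75 mutants and 0.715 ± 0.0893 CPM in P75 wild types (SD, n = 4 each). Cerebellum at P42, without arcuate neurons, had 1.02 ± 0.514 CPM per kilobase in mutants and 1.25 ± 0.487 in wild types. Which cells or overlapping genes gave these reads was not tested. Pomc at P75 had 6.63, 2.08, 2.82 and 3.56 CPM in mutants, against 4.11, 1.69, 5.03 and 9.16 CPM in wild types (-0.52 ± 0.41, edgeR adjusted p = 0.445). The highest Pomc library, wild type replicate 4, also had 7.51 CPM of the growth hormone gene Gh and 0.382 CPM of the prolactin gene Prl, where the other 3 wild types had no count of Gh and at most 0.0488 CPM of Prl. Over the 10 pituitary markers it had a summed level of 10.4 CPM, with 1.38 to 3.22 CPM in those wild types and 2.25 to 3.73 CPM in mutants; their part in the Pomc level was not tested. Without wild type replicate 4 the Pomc log2 fold change was -0.066 ± 0.39 (edgeR adjusted p = 0.941).

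Cartpt at P75 had 14.6, 9.98, 22.3 and 10.3 CPM in mutants, against 23.4, 12.9, 24.0 and 18.7 CPM in wild types, with overlap (log2 fold change -0.57 ± 0.24, edgeR adjusted p = 0.129). Only in the fit without mutant replicate 3, the highest mutant, was Cartpt called lower (-0.88 ± 0.20, edgeR adjusted p = 0.0103). Over the 8 fits that left out 1 library its log2 fold change was -0.88 to -0.42 and its edgeR adjusted p 0.0103 to 0.278. At P42 it had 7.03, 8.34, 40.5 and 40.5 CPM in mutants, against 3.54, 12.2, 5.72 and 17.2 CPM in wild types. Mutant replicates 3 and 4 stood above all others and replicates 1 and 2 among the wild types (1.41 ± 0.63, edgeR adjusted p = 0.397). Agrp at P42 had 0.281, 1.39, 4.11 and 2.0 CPM in mutants, against 0.884, 0.561, 0.728 and 0.906 CPM in wild types (1.23 ± 0.63, edgeR adjusted p = 0.433). Pomc at P42 had 1.18, 1.34, 2.23 and 3.16 CPM in mutants, against 0.995, 0.259, 0.676 and 2.21 CPM in wild types (0.86 ± 0.59, edgeR adjusted p = 0.521). In each of these 3 genes the groups overlapped. Without mutant replicates 3 and 4 together the log2 fold changes were -0.10 for Cartpt, -0.067 for Agrp and 0.28 for Pomc.

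At P75, 2 of the 9 genes (Avp and Agrp) passed the edgeR test, beside 14.3% of all 17523 genes tested, and with DESeq2 the same 2, beside 17.6%. Of the 9, 3 (with Hcrt) had all mutants above all wild types, beside 16.8% of all genes. The median log2 fold change of the 9 was -0.17. With library size as the only scaling the median of all genes shifted to 0.11 and the calls stayed with Avp (0.84, edgeR adjusted p = 0.0152) and Agrp (1.27, edgeR adjusted p = 0.0190). At P42 none of the 9 passed the edgeR test, beside 0.0165% of 18205 genes, and 4 of 9 had an unadjusted p under 0.05, beside 12.6%. DESeq2 called 2 of 9 (Avp and Gal), beside 1.28%, and these 2 were called in the authors' deposited table, beside 1.11%. All 9 log2 fold changes at P42 were positive, with a median of 1.41 where that of all genes was 0.013, and 2 of 9 (Oxt and Gal) did not overlap, beside 4.78% of all genes higher in every mutant.

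**Figure D2:**
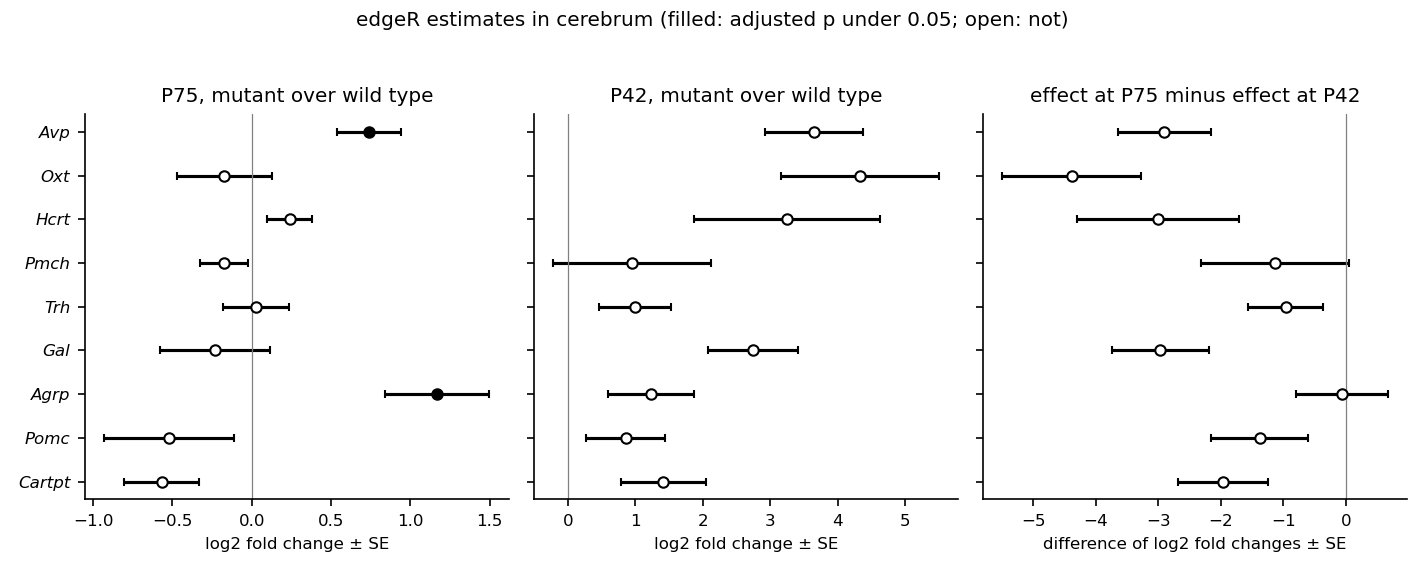
Log2 fold changes (mutant over wild type) of the 9 genes in cerebrum at P75 and at P42, and the effect at P75 minus the effect at P42, from edgeR; bars are standard errors and the horizontal scales differ between panels. Only Avp and Agrp at P75 are filled (adjusted p of 0.0250 and 0.0298), and all 9 differences between the ages are below 0.

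The difference of the genotype effect between the ages (P75 minus P42) was tested directly over the 16 cerebrum libraries. It was below 0 for all 9 genes, with a median of -1.97 where that of all genes was 0.014. It was also below 0 for 10 of 10 hypothalamic transcription factors tested (median -1.98, none called), for 9 of 9 thalamus markers (median -1.78, 5 called lower by edgeR) and for 7 of 8 monoamine neuron markers (median -1.23, none called). The part of these region markers in the neuropeptide values was not tested. It reached -4.38 ± 1.11 for Oxt (edgeR adjusted p = 0.0642), -2.91 ± 0.74 for Avp (edgeR adjusted p = 0.0673) and -2.97 ± 0.78 for Gal (edgeR adjusted p = 0.0737). None of the 9 passed, beside 1.36% of 19273 genes, while 5 of 9 had an unadjusted p under 0.05, beside 14.1%. DESeq2 called Avp (adjusted p = 0.0309) and Gal (0.00538), 2 of 9 beside 3.48%. For Agrp the difference was -0.067 ± 0.73. Without mutant replicate 1 of P42 the edgeR test called Avp, Oxt, Hcrt and Gal, and without mutant replicates 3 and 4 together it called none. Time since tamoxifen, age and the separate count tables of the ages cannot be told apart in this difference.

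Compared per length, as CPM per kilobase of exon, the order of the 9 genes was clearer at P75. In P75 mutants Avp led with 55.7 ± 1.62 CPM per kilobase, followed by Oxt with 34.1 ± 8.04 and Hcrt with 13.4 ± 1.35 (SD, n = 4 each), and the libraries of these 3 did not overlap. Cartpt (11.2 ± 4.49), Pmch (9.66 ± 1.42) and Trh (8.76 ± 1.80) came next, with Hcrt overlapping Cartpt and each overlapping its neighbour. Gal (4.07 ± 2.02), separate from Trh, Pomc (2.86 ± 1.52) and Agrp (1.74 ± 0.551) closed the order and overlapped. In wild types at P75 Oxt led with 35.7 ± 16.6 CPM per kilobase, ahead of Avp with 30.9 ± 11.3, and the sole neighbours without overlap were Pomc (3.79 ± 2.36) and Agrp (0.715 ± 0.0893). At P42 no neighbours in the order were separated in either genotype. Oxt was then highest in mutants (44.9 ± 30.2 CPM per kilobase) and Cartpt in wild types (7.56 ± 4.86).

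**Figure D3:**
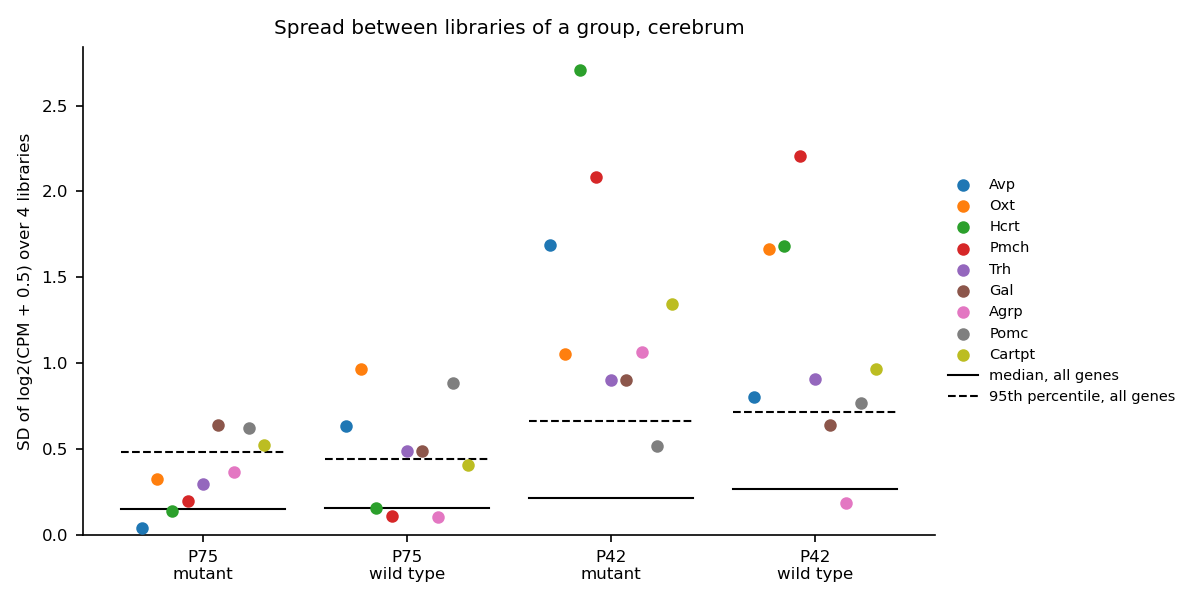
Standard deviation over the 4 libraries of a cerebrum group of log2(CPM + 0.5) for each of the 9 genes (points), with the median (solid line) and the 95th percentile (dashed line) of 16159 genes. In P75 mutants 3 of 9 points lie above the dashed line, and in P42 mutants 8 of 9.

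The spread between libraries of a group was wide at P42. On the scale of log2(CPM + 0.5), the SD over 4 libraries had a median over the 9 genes of 0.326 in P75 mutants and 0.486 in P75 wild types. At P42 it was 1.06 in mutants and 0.911 in wild types. Over the 16159 genes with a mean of at least 1 CPM in cerebrum the median SD was 0.154 in P75 mutants, 0.157 in P75 wild types, 0.213 in P42 mutants and 0.267 in P42 wild types. The number of the 9 above the 95th percentile of these genes was 3 in P75 mutants and 5 in P75 wild types, and 8 in P42 mutants and 7 in P42 wild types. Low counts widen this SD, and the 9 genes differ in level. Hcrt was widest in P42 mutants (2.71) and Pmch in P42 wild types (2.21), while their SDs at P75 were 0.138 and 0.196 in mutants and 0.159 and 0.111 in wild types. Pmch spanned 58.2-fold between the lowest and highest P42 mutant and 73.1-fold between P42 wild types, where Avp spanned 1.07-fold between P75 mutants.

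Several of the 9 genes went up and down in the same libraries. After each library was set against the mean of its own group, the levels of Hcrt and Pmch had a Pearson r of 0.955 over the 16 cerebrum libraries, which was the highest of any pair among the 9. The nearest fellow was Hcrt for Avp (r = 0.908) and for Agrp (0.774), Pmch for Trh (0.883), Avp for Oxt (0.775), Agrp for Gal (0.766), and Oxt for Pomc (0.758) and Cartpt (0.726). Within the 8 libraries of each age the r of Hcrt and Pmch was -0.35 at P75 and 0.961 at P42, that of Avp and Hcrt -0.061 at P75 and 0.963 at P42, and that of Avp and Oxt 0.927 at P75 and 0.759 at P42. Points of these correlations share the library, its dissection and its depth. Among 14143 other genes the profile most like the mean of the 9 was that of Ghsr, the ghrelin receptor gene (r = 0.981). Slc18a2, the vesicular monoamine transporter gene, followed (0.959), then Mtap, a methylthioadenosine phosphorylase gene (0.953), Msantd4 (0.945) and Klhdc10 (0.942). Around the group means, the mean log2 level of the 9 ran from -1.82 to 1.21 at P42 and from -0.609 to 0.243 at P75. Correlations over the 16 libraries thus rest mainly on those of P42. For these other genes r was not taken within each age.

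**Figure D4:**
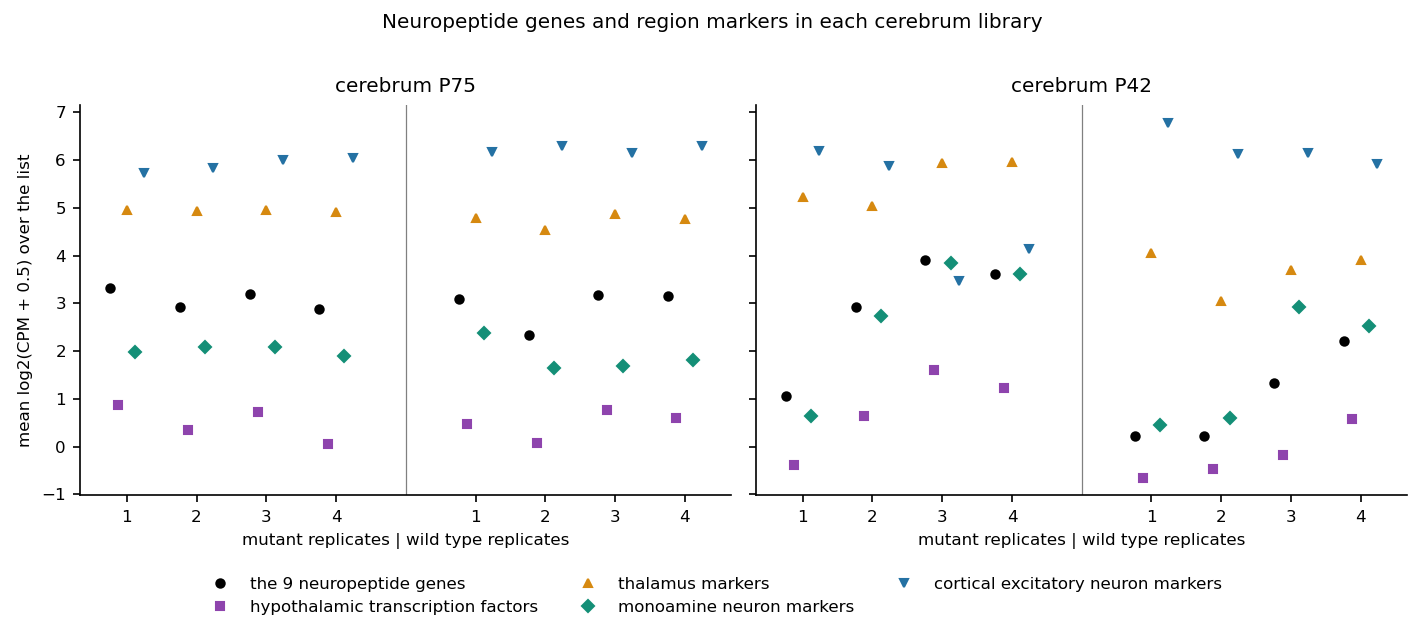
Mean log2(CPM + 0.5) of the 9 neuropeptide genes and of 4 marker lists in each cerebrum library at P75 and P42, with mutant replicates left and wild type replicates right in each panel. At P42 the neuropeptide genes run from 0.222 to 3.90 and go with the monoamine neuron markers, and the cortical markers are lowest in mutant replicates 3 and 4.

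Markers of other parts of the brain moved with these genes at P42, and their part in the results was not tested. The mean log2(CPM + 0.5) of the 9 genes was 1.05, 2.93, 3.90 and 3.62 in P42 mutants and 0.222, 0.234, 1.34 and 2.21 in P42 wild types. The 12 hypothalamic transcription factor genes had -0.384, 0.644, 1.61 and 1.22 in mutants and -0.647, -0.463, -0.166 and 0.584 in wild types. Within each genotype the libraries had the same order for both lists. Of these 12 factors 8 were tested, 8 of 8 were higher in mutants with a median log2 fold change of 1.93, and none passed. Fezf1 (2.35 ± 0.91, edgeR adjusted p = 0.380), Nr5a1 of the ventromedial nucleus (2.59 ± 1.14, edgeR adjusted p = 0.393) and Foxb1 of the mammillary region (2.27 ± 1.02, edgeR adjusted p = 0.397) had the smallest p. The 9 midbrain and brainstem monoamine neuron markers summed to 27.5, 132, 266 and 227 CPM in mutants, against 15.98, 20.8, 125 and 116 CPM in wild types. None of the 7 tested passed, with Ddc at 1.32 ± 0.57 (edgeR adjusted p = 0.389). The 12 hypothalamic factors are not read in hypothalamus alone. In cerebellum at P42 they summed to 0.640 to 17.0 CPM in mutants and 4.10 to 10.6 CPM in wild types. Between wild type tissues 3 of them were tested. Nkx2-1 was called higher in cerebrum, beside 16.4% of all genes, and the other 2 had log2 fold changes below 0 without a call.

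Thalamus markers were higher in every P42 mutant than in any wild type as a sum. The 9 of them summed to 688, 564, 1038 and 973 CPM in mutants, against 260, 128, 306 and 262 CPM in wild types. All 9 log2 fold changes were positive, with a median of 1.76; 8 did not overlap, beside 4.78% of all genes that were higher without overlap, and 8 were called by DESeq2, beside 1.28%, among them Prkcd (2.69 ± 0.41, DESeq2 adjusted p = 1.65e-09, edgeR adjusted p = 0.133), and edgeR called none. Mutant replicate 1, without Hcrt, had 265 CPM of Prkcd, so thalamus markers and lateral hypothalamic genes were not high in the same libraries throughout. Cortex and hippocampus markers (median -0.91) and striatum markers (-0.51) had 9 of 9 log2 fold changes below 0 each and no call. Choroid plexus and ependyma markers had a median of -0.97, with 2 of 10 called lower by DESeq2, beside 1.28% of all genes called in either direction, and none by edgeR, and of 7 cerebellum markers tested none passed (-0.044). Since no wild type reached the mutants' thalamus level at P42, a fit with it as a covariate compares the genotypes at levels they do not share. Such a fit cannot part that level from genotype for the neuropeptide genes. With the level of hypothalamic transcription factors as a covariate, an alternative chosen after seeing the data, their median was 0.13, with Avp at 1.85 ± 0.33 (edgeR adjusted p = 0.320) and Oxt at 2.92 ± 0.85 (edgeR adjusted p = 0.722).

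At P75 the region markers were more even. Hypothalamic transcription factors had mean levels of 0.0552 to 0.881 in mutants and 0.0677 to 0.773 in wild types on the log2(CPM + 0.5) scale, and 0 of 8 tested passed, with Otp at -0.42 ± 0.26 (edgeR adjusted p = 0.304). With their level as a covariate, chosen after seeing the data, Avp and Agrp stayed called (0.78, edgeR adjusted p = 0.0123, and 1.14, edgeR adjusted p = 0.0280). Cartpt was then called lower (-0.60, edgeR adjusted p = 0.0330). The 12 factors summed to only 8.84 to 20.3 CPM in mutants and 10.4 to 18.7 CPM in wild types. So low a level measures hypothalamic content coarsely, and the part of that content in these values was not tested. Thalamus markers had mean levels of 4.92 to 4.96 in mutants and 4.54 to 4.88 in wild types, and 1 of 9, Prkcd, rose (0.30 ± 0.07, edgeR adjusted p = 0.00700), beside 14.3% of all genes called in either direction. With the thalamus level as a covariate neither Avp (0.013, edgeR adjusted p = 0.979) nor Agrp (edgeR adjusted p = 0.367) was called. Since no wild type reached the mutant range, that fit cannot part this level from genotype at P75 either. Cortical markers fell for 6 of 9 and striatal markers for 6 of 9, while 1 of 10 choroid plexus and ependyma markers rose, the thyroid hormone carrier gene Ttr, beside the same 14.3%.

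Of 13 genes of receptors for these peptides 11 were tested. At P75, 1 of 11 passed, beside 14.3% of all genes: Trhr2, a thyrotropin-releasing hormone receptor gene, fell by 1.12 on the log2 scale (SE 0.21, edgeR adjusted p = 0.00322) with all mutants below all wild types. The vasopressin, oxytocin, orexin, melanin-concentrating hormone and melanocortin receptor genes did not pass; Galr2, a galanin receptor gene, had 0.64 ± 0.26 (edgeR adjusted p = 0.118) and Mc4r -0.52 ± 0.25 (edgeR adjusted p = 0.193). At P42, 0 of 11 passed. Mc3r, a melanocortin receptor gene of the hypothalamus, had 1.74 ± 0.59 (edgeR adjusted p = 0.367), Trhr2 had 0.93 ± 0.34 (edgeR adjusted p = 0.371) and Avpr1a, a vasopressin receptor gene, 1.80 ± 0.70 (edgeR adjusted p = 0.380). The difference between the ages passed for Trhr2 (-2.05 ± 0.39, edgeR adjusted p = 0.0133).

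Genes of peptide processing and dense-core granules changed at P75 for 4 of 12, beside 14.3% of all genes. Vgf, a granule protein and peptide precursor gene, rose to 682, 586, 693 and 672 CPM in mutants, against 398, 317, 409 and 403 CPM in wild types (log2 fold change 0.68 ± 0.08, edgeR adjusted p = 0.000115). The genes of the prohormone convertases Pcsk1 (-0.50 ± 0.11, edgeR adjusted p = 0.00649) and Pcsk2 (-0.40 ± 0.07, edgeR adjusted p = 0.00257) fell, as did Pam (-0.24 ± 0.07, edgeR adjusted p = 0.0289), whose enzyme amidates peptide ends. At P42 none of the 12 passed with edgeR and 1, Pcsk1, fell with DESeq2, beside 1.28% of all genes called either way. Pcsk1 had -0.62 ± 0.13 with edgeR (edgeR adjusted p = 0.258, DESeq2 adjusted p = 0.0110). Neuropeptide genes of wide brain expression had 1 rise and 1 fall among 11 at P75, beside 14.3% of all genes called either way. Npy, of cortical interneurons and arcuate neurons, rose (0.34 ± 0.10, edgeR adjusted p = 0.0440) and Cck fell (-0.43 ± 0.11, edgeR adjusted p = 0.0176). At P42 none of the 11 passed, with 4 above and 7 below 0 and a median of -0.10, where the 9 hypothalamic genes had 1.41. Of 8 other mainly hypothalamic peptide genes 2 were tested and none passed at either age; Tac2 had -0.089 ± 0.17 at P75 and 0.81 ± 0.30 at P42 (edgeR adjusted p = 0.781 at P75 and 0.371 at P42).

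Cerebellum served as a tissue without hypothalamus. Hcrt there had at most 0.107 CPM in mutants, against 0.179 CPM in wild types, and Pmch at most 0.130 CPM in mutants, against 0.273 CPM in wild types. Summed over 4 libraries Hcrt had 2 counts in mutants and 3 in wild types, and Pmch had 3 counts in mutants and 5 in wild types. Avp had at most 0.213 CPM in mutant cerebellum, against 0.596 CPM in wild types, and Oxt at most 0.0711 CPM in mutants, against 0.238 CPM in wild types. These 4 genes did not pass the low-count filter in the genotype comparison. The other 5 were tested and none passed, beside 0.0114% of 17616 genes. An unadjusted p under 0.05 was found for 0 of 5, beside 4.65%, and DESeq2 called none of the 4 to which it gave an adjusted p (Trh had none), beside 0.233%. Trh had 0.0711, 4.29, 0.805 and 26.6 CPM in mutant cerebellum and 0, 0.273, 8.10 and 0.477 CPM in wild types (log2 fold change 1.04 ± 1.96, edgeR adjusted p = 0.993). Its high libraries, mutant replicates 4 and 2 and wild type replicate 3, were also the highest in monoamine neuron markers, which summed to 198 and 135 CPM in those mutants and 23.1 and 23.6 CPM in the other mutants, against 115 CPM in that wild type and 40.6 to 69.4 CPM in the other wild types. That Trh neurons also lie in the brainstem raphe is known; the part of such cells in these values was not tested.

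**Figure D5:**
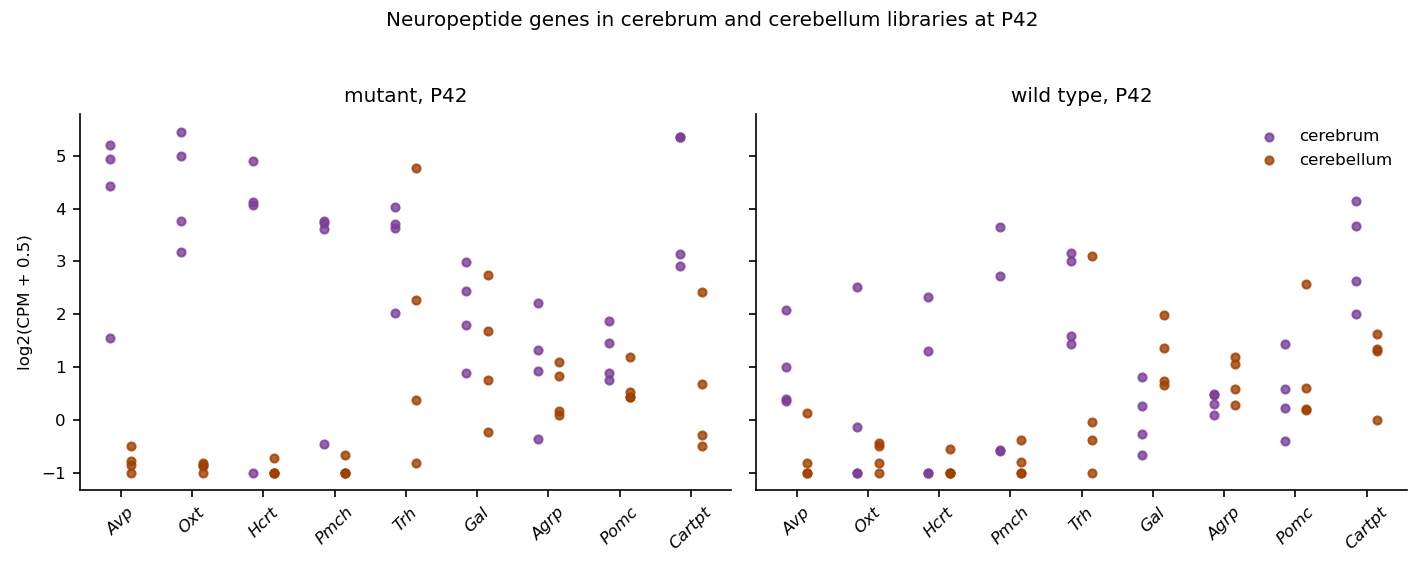
Levels of the 9 genes as log2(CPM + 0.5) in each P42 library of cerebrum and cerebellum, with mutants left and wild types right; each point is a library and -1 stands for no count. No cerebellum library exceeds 0.596 CPM for Avp, Oxt, Hcrt or Pmch. The wild type points overlap between the tissues for all genes but Avp and Cartpt.

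Between wild type tissues at P42, 6 of the 9 genes were tested and 2 were called, both higher in cerebrum, beside 16.4% of 17964 genes called higher. Avp had a log2 fold change of cerebrum over cerebellum of 3.26 ± 0.81 (edgeR adjusted p = 0.0114) and Cartpt of 2.07 ± 0.47 (edgeR adjusted p = 0.00720), both without overlap, as were 14.8% of all genes in that direction. Trh had 1.70 ± 1.13 (edgeR adjusted p = 0.292), or 4.38 without wild type cerebellum replicate 3 (edgeR adjusted p = 0.00415). Gal averaged 0.603 ± 0.491 CPM in cerebrum and 1.94 ± 1.11 CPM in cerebellum (SD, n = 4 each; log2 fold change -1.33 ± 0.59, edgeR adjusted p = 0.119). Agrp (-0.65 ± 0.41, edgeR adjusted p = 0.261) and Pomc (-0.77 ± 0.64, edgeR adjusted p = 0.408) did not pass either. With library totals as the only scaling the median over all genes was -0.15, and both calls held. Oxt, Hcrt and Pmch, at 0 or near 0 in all cerebellum and in at least 2 of 4 wild type cerebrum libraries, were not tested.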

How the data were processed

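The authors deposited raw read counts per gene for 24 polyA-enriched libraries, with gene lengths, and tables of their own comparisons. Per the file headers the deposited tables give the mean normalized count (a signal), the log2 fold change with its error, the test statistic (a score) and p-values; HISAT2, DESeq2 and mm10 are named per the submitters' processing notes, while the counter and its use of strand are not named there. From the counts, CPM was the count over the library total times 1000000, and log2 levels used CPM + 0.5.

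Tests were edgeR 4.0.16 quasi-likelihood F tests (R 4.3.3, limma 3.58.1) over all genes passing filterByExpr, with TMM scaling, a sex term in comparisons that held P42 libraries, and Benjamini-Hochberg adjustment at 0.05; each SE is the log2 fold change over the root of F. P75 libraries were fitted alone, and 16 cerebrum libraries together for the difference between ages. DESeq2 1.42.0, other scalings, filters, a replicate block, marker covariates and leaving out libraries were alternatives. The tests were tried on simulated counts. No 2 libraries of the same group were duplicates within sampling noise. Counting intervals were not used.

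The 9 genes and the 12 marker and pathway lists were chosen with earlier results of these data known. Named genes were the 9, Polr3a, each list's called genes or otherwise up to 3 with the smallest p, and the 5 genes most alike in profile; Slc17a7, Slc6a3, Gh and Prl were named after their values were seen. Python 3.11.15 with pandas 2.3.3, numpy 2.4.6 and matplotlib 3.10.9 made the summaries and figures.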

Additional observations from a re-analysis of the deposited data

Results flagged for a closer look

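Among 54 sets of 4 libraries (9 genes in 6 groups), 11 held a library whose gap to its nearest neighbour exceeded Dixon's critical value for 4 samples, as a share of the whole range. Chance gives about 1 in 20 for independent, normally distributed values. These sets are CPM values, some of few counts, and share libraries, so 11 of 54 cannot be set against that rate. In cerebrum these were Oxt in wild type replicate 2 at P75, lowest with 5.83 CPM where the others had 23.2 to 24.5 CPM, Pmch in mutant replicate 1 at P42, lowest with 0.225 CPM where the others had 11.7 to 13.1 CPM, and Oxt in wild type replicate 4 at P42, highest with 5.23 CPM where the others had 0 to 0.416 CPM.

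The other 8 were single high libraries of cerebellum. Trh had 26.6 CPM in mutant replicate 4, against 0.0711 to 4.29 CPM in the other mutants, and 8.10 CPM in wild type replicate 3, against 0 to 0.477 CPM in the other wild types. Pomc had 1.78 CPM in mutant replicate 2, against 0.853 to 0.951 CPM in the other mutants, and 5.42 CPM in wild type replicate 4, against 0.643 to 1.02 CPM in the other wild types. Avp had 0.596 CPM in wild type replicate 4, with 0 to 0.0683 CPM in the others. Hcrt had 0.107 CPM in mutant replicate 3 and 0.179 CPM in wild type replicate 4, and Pmch 0.130 CPM in mutant replicate 4, with no count in the other libraries of their groups; these last 3 values are 2 or 3 counts each. With no count in the other 3 libraries any count would be marked, so the rate of 1 in 20 holds least for these 3 sets.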

How the results depend on the processing

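Over all alternatives 655 of 690 log2 fold changes of the 9 genes kept their direction and 35 turned; where a value turned or a call moved, the cause was not tested unless the alternative itself fits fewer libraries or genes. Low counts limit Agrp, and in cerebellum Hcrt and Pmch.

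The genes called at P42 in cerebrum (3 of all genes) were 233 with DESeq2, 1312 with no low-count filter, 8 with the replicate block, and 0 with library size only, a filter of 1 CPM in 4 libraries, no sex term, either marker covariate or without mutant replicates 3 and 4 together; leaving out each library gave 0 to 11. Of the 9 genes 2 were called with DESeq2, and 0 to 1 on leaving out each library. With no filter 7 were called (all but Agrp and Pomc), beside 1312 of 34243 genes. That fit gave Oxt, without a count in wild type replicates 1 and 2, an edgeR adjusted p of 7.66e-57, against 0.340 with the filter. At P75 the 2502 genes called became 458 with the thalamus covariate, with 1 of the 9 (Oxt), and 1356 to 2783 on leaving out each library, with 0 to 2 of the 9. Library size only gave 2313 higher and 547 lower calls at P75, where TMM gave 1342 and 1160. In cerebellum the 2 genes called became 41 with DESeq2, 153 with no filter, 1 with the replicate block, 1 with no sex term and 1 to 2 on leaving out each library, with 0 of the 9 each time. Between tissues the 5472 genes called became 2658 with the replicate block and 4074 to 5856 on leaving out each library. Of the 9 genes 7 were called with no filter, beside 6360 of 33913 genes. The CPM filter left 1 called (Cartpt), beside 5296 of 16321 genes, and leaving out each library 2 to 3. For the difference between ages the 263 genes called became 670 with DESeq2, 1176 with no filter, 132 without P42 mutant replicates 3 and 4 together, 135 in males only and 124 to 1169 on leaving out each library. Of the 9 genes, 2 were called with DESeq2, beside 670 of 19273 genes, and 7 with no filter, beside 1176 of 36829. In males only 1 (Oxt) was called, beside 135 of 19898 genes, and leaving out each library called 0 to 4.

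The thalamus covariate separates the genotypes without overlap at both ages, though narrowly at P75 (mutants from 4.92, wild types up to 4.88). A fit with it compares the genotypes at levels they do not share, and so cannot part it from genotype. With this covariate the P42 log2 fold changes were -0.27 for Avp, -0.94 for Oxt, -1.60 for Hcrt, -3.13 for Pmch, -0.62 for Trh, -0.14 for Gal, -1.74 for Agrp, -2.48 for Pomc and -1.70 for Cartpt. At P75 that of Trh was -0.42 and that of Avp 0.013 (edgeR adjusted p = 0.979). The P75 calls of Avp and Agrp were both lost (edgeR adjusted p = 0.367 for Agrp). With the hypothalamic covariate, chosen after seeing the data, those at P42 turned to -1.44 for Pmch, -0.041 for Trh, -0.42 for Agrp and -0.053 for Cartpt. Without mutant replicates 3 and 4 together they turned to -0.45 for Pmch, -0.067 for Agrp and -0.10 for Cartpt, and the difference between ages to 0.12 for Pmch and 1.20 for Agrp. Leaving out each library gave log2 fold changes of -0.16 to 2.20 for Pmch at P42 and -0.16 to 0.15 for Trh at P75. In cerebellum they were -0.29 to 4.48 for Trh, -0.49 to 0.98 for Gal, -0.87 to 0.0069 for Agrp and -1.34 to 0.78 for Pomc. Between tissues Pomc had -1.16 to 0.21, and for the difference between ages Agrp had -0.44 to 0.86.

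No label says that the replicate numbers pair the libraries. In cerebrum the deviations from group means of same-numbered libraries had correlations of 0.0127 to 0.321 at P42 and 0.0519 to 0.221 at P75. At P75 each library correlated best with its own number, a hint from the data and not the design. With the replicate block 3 of the 9 genes were called at P75 (Cartpt added), beside 3537 of all 17523 genes. For the difference between ages it called 3 (Avp, Oxt and Gal), beside 309 of all 19273 genes, and the difference of Agrp turned to 0.20. Between genotypes at P42 it called none of the 9 in either tissue, and between tissues it called Avp and Cartpt as before.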
